A study of Mus musculus with 6 samples.

Results

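Mouse natural killer (NK) cells expanded on a neuroblastoma feeder line were set against NK cells expanded in interleukin 15 (IL-15) alone, in 4 of the series' 6 NanoString nCounter libraries. In the labels, both feeder libraries have IL-15/IL-15Ra/AgN2a-4P as their way of expansion and None as treatment, and both IL-15 libraries have IL-15/IL-15Ra and None. They were chosen by these labels alone, and all endogenous probes were compared as the mean of the feeder libraries minus the mean of the IL-15 libraries. The cells came from female C57BL/6 mice whose ages are not given in the sources used here. Every culture received 10 ng/mL of IL-15 conjugated to its receptor alpha chain over 12 days, so IL-15 was common to both groups and the AgN2a-4P cells, irradiated at 100 Gy, were the labelled difference. The labels carry one protocol text for all samples, with feeder cells and a 4 h antibody step, also for the libraries labelled without feeder cells. They name an isotype control antibody that no library's treatment label repeats, and they describe quantitative PCR although the values come from nCounter probes. NK cells were purified again before RNA was extracted. The libraries carry the title numbers 2 and 3 (feeder) and 1 and 3 (IL-15). No label says whether they came from separate animals or cultures, so a p-value here covers only library-to-library variation, possibly just technical.

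NK cells are innate lymphocytes that kill infected or transformed cells by releasing perforin and granzymes, and that secrete interferon gamma and chemokines. IL-15, presented on its receptor alpha chain, keeps them alive and dividing. AgN2a-4P is a mouse neuroblastoma line made to carry CD80 and CD86, which bind CD28 and CTLA-4, together with CD54 (ICAM-1), which binds LFA-1, and CD137L, which binds CD137. A feeder culture therefore adds receptor contact with a tumour cell to the cytokine signal.

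The purified cells carried an NK cell profile in both groups. All 12 NK markers listed were on the panel and were measured in every library. Their summed level was 87515 and 105379 normalised counts in the feeder libraries, against 70297 and 73569.8 in the IL-15 libraries. Gzma alone gave 29381 and 34628 of this in the feeder libraries, against 16006 and 21757 in the IL-15 libraries. Of the 12 markers, 6 were higher in both feeder libraries than in either IL-15 library, and 2, Eomes and Itga2, were lower in both. Over all tested probes, 34.4% were higher in both and 5.81% were lower in both. None of the 12 markers stayed higher in both under every way of scaling the libraries described below. Eomes and Itga2 stayed lower in both under every one. A normalised count is here the deposited log2 value taken back to the linear scale, which equals the probe's count times one factor per library. Gzmb, which encodes granzyme B, had 15027 and 21658 normalised counts in feeder libraries 2 and 3, against 16804 and 12095 in IL-15 libraries 1 and 3. Ncr1, a natural cytotoxicity receptor gene, had 3819.7 and 3130.3 in the feeder libraries, against 2042 and 2946 in the IL-15 libraries. Il2rb, the beta chain of the IL-15 receptor, had 14339 and 16235 in the feeder libraries, against 14048 and 13666 in the IL-15 libraries, with a log2 difference of 0.14 ± 0.21 (SE) and a 95% interval of −0.38 to 0.66.

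The feeder libraries held 379767 and 359824 recovered counts and the IL-15 libraries 422455 and 441185. The 8 negative control probes averaged 4.50 and 4.75 counts in the feeder libraries and 6.13 and 4.88 counts in the IL-15 libraries. Of 518 gene probes, 430 reached 20 counts in at least 2 of the 6 libraries and were tested, 410 of them endogenous. The other 88 are not part of the counts below. Libraries did not sort by expansion method. Feeder library 2 lay closest to IL-15 library 3, with a Pearson correlation of 0.975 across the tested probes and a median absolute log2 difference of 0.24. The same median was 0.27 between both feeder libraries and 0.32 between both IL-15 libraries. IL-15 libraries 1 and 3 were at least 2-fold apart at 61 probes and the feeder libraries at 29, while the group means differed by that much at 26. The correlation is over probes of one panel, which are not independent replicates.

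**Figure D1:**
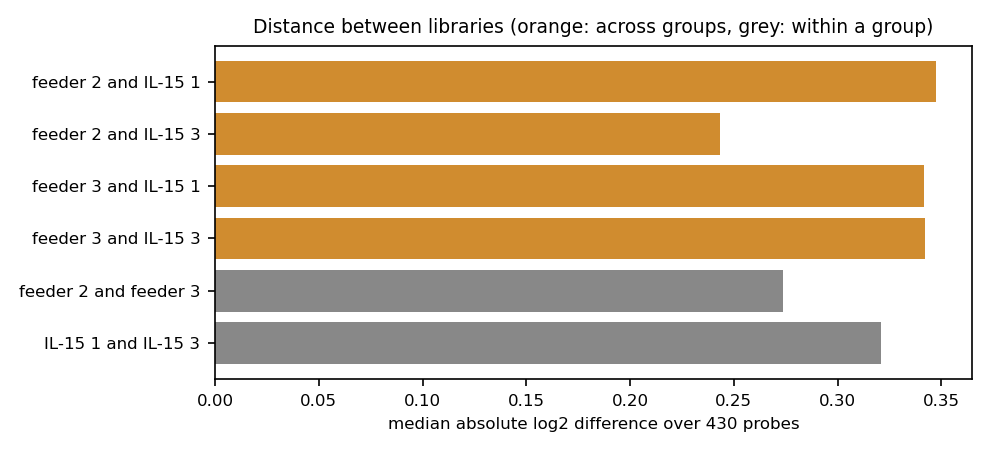
Distance between each pair of the 4 libraries, within a group in grey and across groups in orange, as the median absolute log2 difference over the 430 tested probes. The pair of feeder library 2 and IL-15 library 3 has the lowest value, 0.24, below that of the feeder pair, 0.27, and of the IL-15 pair, 0.32.

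No gene passed the test between the expansion methods. In limma, fitted over all 6 libraries with Benjamini-Hochberg adjustment over 430 probes, 0 probes were called higher (0.00%) and 0 lower (0.00%), and the smallest adjusted p was 0.237, for Cd63. At an unadjusted p under 0.05, 34 probes were higher with feeder cells (7.91%) and 5 were lower (1.16%). As a description without a test, both feeder libraries lay above both IL-15 libraries at 148 of the 430 probes (34.4%) and below both at 25 (5.81%). With a difference of at least 1 on the log2 scale added, these were 21 (4.88%) and 2 (0.465%). An exact permutation test of 2 against 2 libraries cannot go below p = 0.333, so no single gene can be called by that route.

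The excess of higher over lower probes depended on how libraries were scaled. On the deposited scale, which sets the mean of 20 housekeeping probes equal in every library, the median difference of the 430 probes was 0.19. With the trimmed mean of M values it was 0.014, with the spiked-in positive controls −0.037, with total counts −0.097 and with a median of ratios −0.017. Probes with both feeder libraries above both IL-15 libraries then numbered 70 (16.3%), 38 (8.84%), 42 (9.77%) and 66 (15.3%) in that order, and those with both below numbered 89 (20.7%), 44 (10.2%), 117 (27.2%) and 99 (23.0%). On all 5 scales, 25 probes were above and 18 were below. The housekeeping probes themselves ran from −0.64 for Polr1b to 0.40 in their log2 differences, with 4 above and 3 below without overlap. The differences that follow are on the deposited scale and are read against its median of 0.19. A change of scale shifts all probes nearly alike, so list medians of 0.29 or less on the deposited scale were close to 0 or negative with total counts. Genes said to hold on every scale kept both groups apart in the same direction under all 5 scalings.

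**Figure D2:**
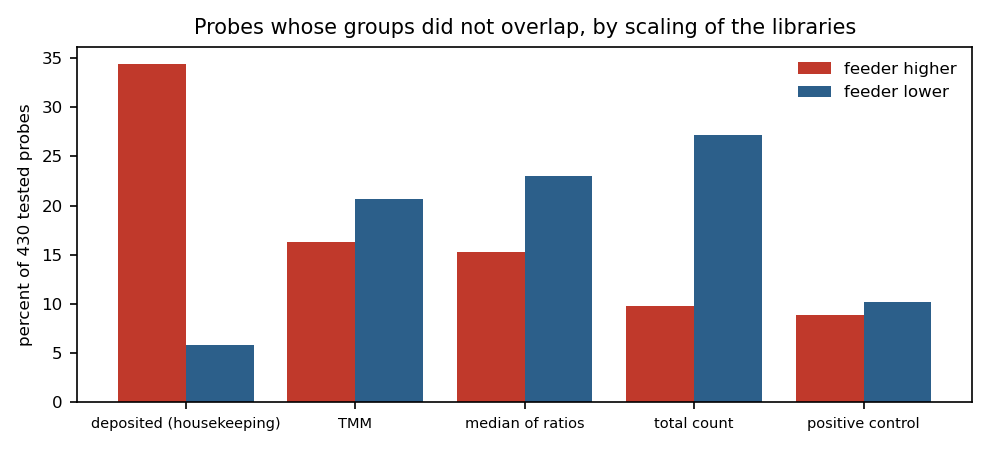
Percent of the 430 tested probes at which both feeder libraries lay above (red) or below (blue) both IL-15 libraries, under 5 ways of scaling the libraries; TMM is the trimmed mean of M values. The deposited scale gives 34.4% above and 5.81% below, and the lower probes outnumber the higher ones under the other 4 scalings.

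Cd63, Cd3d and Cd28 led the genes that were higher with feeder cells, and Hif1a and Ada those that were lower. Cd63 encodes a tetraspanin of lysosomal and cytotoxic granule membranes that reaches the surface on degranulation. It had 498 and 269 normalised counts in feeder libraries 2 and 3, against 85.1 and 77.5 in IL-15 libraries 1 and 3. Both feeder libraries lay well above either IL-15 library, and the log2 difference was 2.17 ± 0.33 (SE), with a 95% interval of 1.36 to 2.98 and an adjusted p of 0.237 in limma. With positive control scaling the difference was 1.95 ± 0.50 (SE) and the adjusted p in limma 0.0398, the 1 call under that scaling. There the difference was smaller and its SE larger than on the deposited scale. That call therefore does not reflect a wider separation of the groups. Cd63 kept a difference of 1.73 to 2.62 when any of these 4 libraries was left out.

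Cd3d encodes the delta chain of CD3, a signalling part of the T cell receptor complex. It had 190.1 and 188 normalised counts with feeder cells and 22.5 and 64.4 with IL-15 alone, a log2 difference of 2.31 ± 0.54 (SE, adjusted p = 0.441). The feeder libraries were nearly equal to each other, while IL-15 library 1 was well below IL-15 library 3. Without IL-15 library 1 the difference was 1.55, and without IL-15 library 3 it was 3.07. Of the 12 T cell markers listed, Cd3d and Thy1 were on the panel, and neither was at 0. Their summed level was 5609 and 6752 normalised counts in the feeder libraries, against 6402 and 5522 in the IL-15 libraries, nearly all of it Thy1, which activated NK cells also carry. The part of T cells in the Cd3d difference was not tested. In bulk RNA, more cells of a type and more RNA per cell cannot be told apart.

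**Figure D3:**
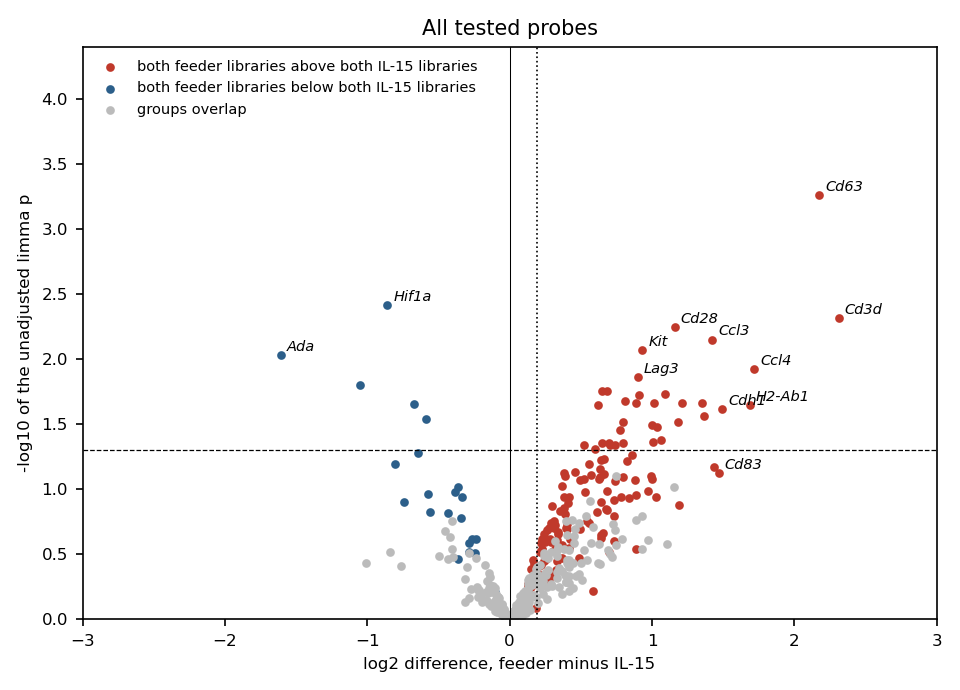
Log2 difference, feeder minus IL-15, against the negative log10 of the unadjusted limma p for the 430 tested probes, coloured by whether both feeder libraries lay above (148), below (25) or among the IL-15 libraries. The dotted line marks the median difference of 0.19 and the dashed line an unadjusted p of 0.05. Cd63 and Cd3d stand at the upper right and Hif1a and Ada at the upper left, and no probe passed the adjusted threshold.

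**Figure D4:**
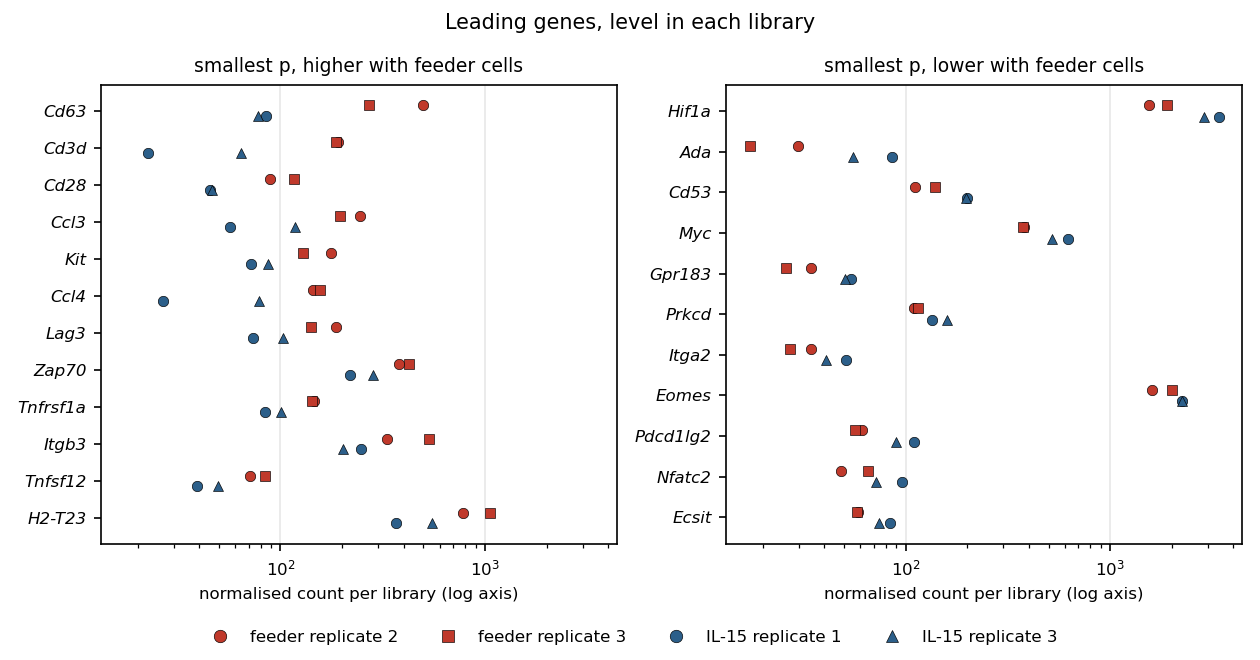
Normalised counts, on a log axis, of the 12 leading higher and 11 leading lower genes in each of the 4 libraries. The feeder values of Cd63 (498 and 269) lie above its IL-15 values (85.1 and 77.5), and those of Hif1a (1554 and 1903) lie below (3389 and 2878).

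Among receptors for the ligands on the feeder line, listed together with the CD28 relative Icos, Cd28 had the smallest p. All 8 listed genes were tested, and 3 were above, near the 34.4% of all probes, and 0 below. Their median difference was 0.28. Cd28, the receptor for CD80 and CD86, had 89.1 and 116 normalised counts in the feeder libraries, against 45.1 and 46.1 in the IL-15 libraries. The IL-15 libraries were nearly equal and both feeder libraries lay well above them, on every scale, with a difference of 1.16 ± 0.28 (SE, adjusted p = 0.441). Ctla4, the inhibitory receptor for the same ligands, had 30.7 and 198 normalised counts with feeder cells and 152 and 61.4 with IL-15, so the libraries within a group were farther apart than the groups. Its difference was −0.31 ± 0.90 (SE), with an interval of −2.50 to 1.88. Tnfrsf9, which encodes CD137, had 979 and 1634 normalised counts in the feeder libraries, against 1136 and 807 in the IL-15 libraries. The groups overlapped and the interval was −0.32 to 1.13.

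The LFA-1 subunits, which bind CD54, differed less than their spread. Itgal had 739 and 868 normalised counts in the feeder libraries, against 708 and 735 in the IL-15 libraries, a difference of 0.15 ± 0.17 (SE). Itgb2 had 329 and 497 with feeder cells and 446 and 358 with IL-15, a difference of 0.015 ± 0.27 (SE). Both differences were below the median of all probes, and both turned negative under the other 4 scalings. Itgam, the alpha chain that pairs with Itgb2 in Mac-1, had 23.8 and 58.1 normalised counts with feeder cells, against 10.8 and 25.6 with IL-15, and overlapped. Itgax, the alpha chain that pairs with Itgb2 in CR4, was low, at 16.8 and 26.0 normalised counts with feeder cells, against 8.34 and 13.2 with IL-15. It was above on every scale, but was tested only because of the anti-TIM-3 libraries of the series. Its recovered counts were 17 and 21 in the feeder libraries, against 10 and 18 in the IL-15 libraries. Icos, a CD28 relative, had overlapping groups and a difference of −0.11 ± 0.30 (SE). Of the feeder ligands, only Icam1 and Cd86 were on the panel. Cd86 was too low to be tested, with 24 and 13 recovered counts in the feeder libraries, against 6 and 9 in the IL-15 libraries. The highest negative control had 6 and 12 counts in the feeder libraries and 11 in each IL-15 library. Icam1 had 159 and 122 normalised counts with feeder cells and 85.1 and 129 with IL-15. Whether RNA of feeder cells contributed was not tested.

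Of the signalling genes downstream of receptor contact, Zap70 was among the leading higher genes and Prkcd among the leading lower ones. Zap70, the kinase that binds phosphorylated receptor chains, had 378 and 424 normalised counts in the feeder libraries, against 219 and 285 in the IL-15 libraries. Its difference was 0.68 ± 0.21 (SE, adjusted p = 0.441), and the groups overlapped under positive control scaling only. Lck, which acts upstream of Zap70, overlapped between groups, at 1498 and 1107 normalised counts with feeder cells and 1051 and 1314 with IL-15. Of 16 receptor-proximal signalling genes tested, 5 were above and 1 was below, near the 34.4% and 5.81% of all probes. None was above on all 5 scales, and the median difference of 0.12 was under the 0.19 of all probes. The gene below was Prkcd, a protein kinase C, at 109.9 and 115 in the feeder libraries against 135 and 159 in the IL-15 libraries.

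The early growth response genes Egr1, Egr2 and Egr3, which antigen and activating receptors switch on within hours, were above, as were 34.4% of all probes. Egr2 and Egr3, and Fos and Cd69 given below, were picked after their values were seen. The list of lymphocyte transcription factors that holds the Egr genes had 6 of 25 above. Egr1 had 1699 and 1646 normalised counts with feeder cells and 673 and 1226 with IL-15, a difference of 0.88 ± 0.43 (SE, adjusted p = 0.584). Egr2 had 48.5 and 58.1 in the feeder libraries against 30.9 and 38.0 in the IL-15 libraries, and Egr3 had 90.1 and 64.3 with feeder cells, against 48.4 and 49.0 with IL-15. None of the 3 stayed above on all 5 scales. Fos, which encodes a subunit of AP-1, did so, at 89.1 and 111 normalised counts with feeder cells, against 41.7 and 56.3 with IL-15. Cd69, the early activation antigen, also held on every scale, with 1265 and 1414 in the feeder libraries, against 929 and 817 in the IL-15 libraries and a difference of 0.62 ± 0.21 (SE, adjusted p = 0.441). Cd38, an activation antigen and ectoenzyme that consumes NAD, had 104 and 131 with feeder cells, against 55.9 and 80.5 with IL-15. Cd83, an activation marker, was low, at 30.7 and 21.0 with feeder cells, against 5.01 and 16.8 with IL-15, and IL-15 library 1 was apart from the rest. Nfatc2, a calcium-regulated transcription factor, was below on every scale, at 48.5 and 65.5 normalised counts with feeder cells, against 96.0 and 71.7 with IL-15. Of 18 co-stimulation and activation genes tested, 5 were above and 0 below, a share under the 34.4% of all probes, and their median of 0.18 was close to that of all probes.

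Among secreted factors, the inflammatory chemokine genes Ccl3 and Ccl4 were higher with feeder cells. Ccl3 had 244 and 196 normalised counts in the feeder libraries, against 56.7 and 118 in the IL-15 libraries, a difference of 1.42 ± 0.36 (SE, adjusted p = 0.441). Ccl4 had 145 and 156 with feeder cells, against 26.7 and 78.3 with IL-15, a difference of 1.71 ± 0.49 (SE, adjusted p = 0.441). For both, IL-15 library 3 lay nearer to the feeder libraries than IL-15 library 1 did. Without IL-15 library 1 the differences were 0.89 and 0.94, and without IL-15 library 3 they were 1.95 and 2.49, where both passed at an adjusted p of 0.0162. Of 8 chemokine ligands tested, 5 were above and 0 below, beside 34.4% and 5.81% of all probes, with a median difference of 0.62, and only Ccl3 and Ccl4 were above on all 5 scales. Ccl1, a CCR8 ligand, had 248 and 77.9 normalised counts with feeder cells and 75.9 and 73.9 with IL-15. Its difference rested on feeder library 2. Xcl1, which attracts cross-presenting dendritic cells, had 11085 and 3894 normalised counts in the feeder libraries, against 3827 and 5644 in the IL-15 libraries, and overlapped.

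Interferon gamma RNA was above in both feeder libraries. Ifng had 131 and 100.1 normalised counts, against 34.2 and 73.9 with IL-15 alone, a difference of 1.19 ± 0.42 (SE, adjusted p = 0.486), and its groups overlapped under positive control and total count scaling. Csf2, which encodes the growth factor GM-CSF, had 51.5 and 23.5 in the feeder libraries, against 13.4 and 22.7 in the IL-15 libraries, so feeder library 3 was level with IL-15 library 3. Tgfb3 had 21.8 and 17.3 with feeder cells, against 8.34 and 11.7 with IL-15, close to the lower limit for testing. Tgfb3 was tested only because of the anti-TIM-3 libraries. Of 17 cytokines tested, 8 were above and 0 below, none on all 5 scales, with a median difference of 0.37. Over all probes 34.4% were above and 5.81% below. Tnf overlapped, with a difference of −0.05 ± 0.31 (SE). The chemokine receptors gave 3 above and 0 below of 7 tested, near those shares, and none on all scales. Cxcr4, the receptor for CXCL12, had 20.8 and 53.1 normalised counts in the feeder libraries, against 24.2 and 17.6 in the IL-15 libraries. Ccr7 and Cxcr3 differed by 0.64 ± 0.49 and 0.49 ± 0.60 (SE).

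Most NK receptors were higher with feeder cells in their group means, and IL-15 library 1 was the lowest of the 4 libraries for several of them. Of 13 activating receptors and adaptors tested, 6 were above and 1 was below, beside 34.4% above and 5.81% below over all probes, and 12 of the 13 differences were above the median of all probes. Their own median was 0.60 and lay at 0.31 or higher under the other scalings. Only Hcst stayed above on all 5 scales. It encodes DAP10, the adaptor that carries the NKG2D signal, and had 149.5 and 159 normalised counts with feeder cells, against 108 and 96.6 with IL-15. Klrk1, which encodes NKG2D itself, had 4539 and 2956 in the feeder libraries, against 1273 and 3766 in the IL-15 libraries, and Klrc2, the activating NKG2C, had 1273 and 685 with feeder cells, against 289.6 and 1067 with IL-15. In both genes IL-15 library 3 lay between the feeder libraries and IL-15 library 1 below them. Klrd1, which encodes CD94, the partner chain of both NKG2C and NKG2A, had 8962 and 7095 with feeder cells, against 3680.1 and 6684 with IL-15. Cd244, which encodes the SLAM family receptor 2B4, had 1244 and 1673 with feeder cells, against 688 and 1132 with IL-15, and was just above in both feeder libraries. Itga2, which encodes the NK marker CD49b, was the member below, on every scale, at 34.7 and 27.2 normalised counts with feeder cells, against 50.9 and 41.0 with IL-15.

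Among the Ly49 receptors, which recognise MHC class I in mice, Klra4, Klra6 and Klra7 repeated this layout. Over all 6 tested, the median of IL-15 library 1 minus IL-15 library 3 was only −0.33 on the log2 scale. Klra2, Klra3 and Klra5 did not share the low values of IL-15 library 1. Of 6 tested, 3 were above (34.4% of all probes were) and 0 below, with a median difference of 0.75 and none above on all 5 scales. Klra4 (Ly49D) had 372 and 415 normalised counts in the feeder libraries, against 82.6 and 484 in the IL-15 libraries. Klra6 (Ly49F) had 103 and 97.6 with feeder cells, against 18.4 and 74.6 with IL-15, and Klra7 (Ly49G) had 3209 and 3269.9 with feeder cells, against 1173 and 3014 with IL-15. The feeder libraries were close to each other in all 3 genes, while IL-15 library 1 was at least 2-fold below IL-15 library 3. Without IL-15 library 3 they passed in limma, with adjusted p of 0.0162, 0.0306 and 0.0404 and differences of 2.25, 2.45 and 1.47. Without IL-15 library 1 the differences were −0.30, 0.43 and 0.10. Together with Ccl3, Ccl4, Cd3d and H2-Ab1, these 3 were the 7 genes (1.63%) called when IL-15 library 3 was left out. The lone IL-15 library was then assumed to vary like the other groups. The Ly49 genes are near copies of each other, and how far a probe separates them is not given in the sources used here.

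Lag3 led the inhibitory receptors. It had 186 and 141 normalised counts with feeder cells and 73.4 and 102 with IL-15, a difference of 0.90 ± 0.27 (SE, adjusted p = 0.441), and overlapped under positive control and total count scaling. Havcr2, which encodes TIM-3, had 717 and 1343 in the feeder libraries, against 682 and 538 in the IL-15 libraries. Feeder library 2 was close to IL-15 library 1, and the difference of 0.70 ± 0.62 (SE) rested on feeder library 3. Of 9 inhibitory receptors tested, 5 were above and 0 below, beside 34.4% and 5.81% of all probes, and none held on all 5 scales. Klrg1 was spread widely within both groups, at 386 and 903 normalised counts with feeder cells and 879.5 and 426 with IL-15.

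**Figure D5:**
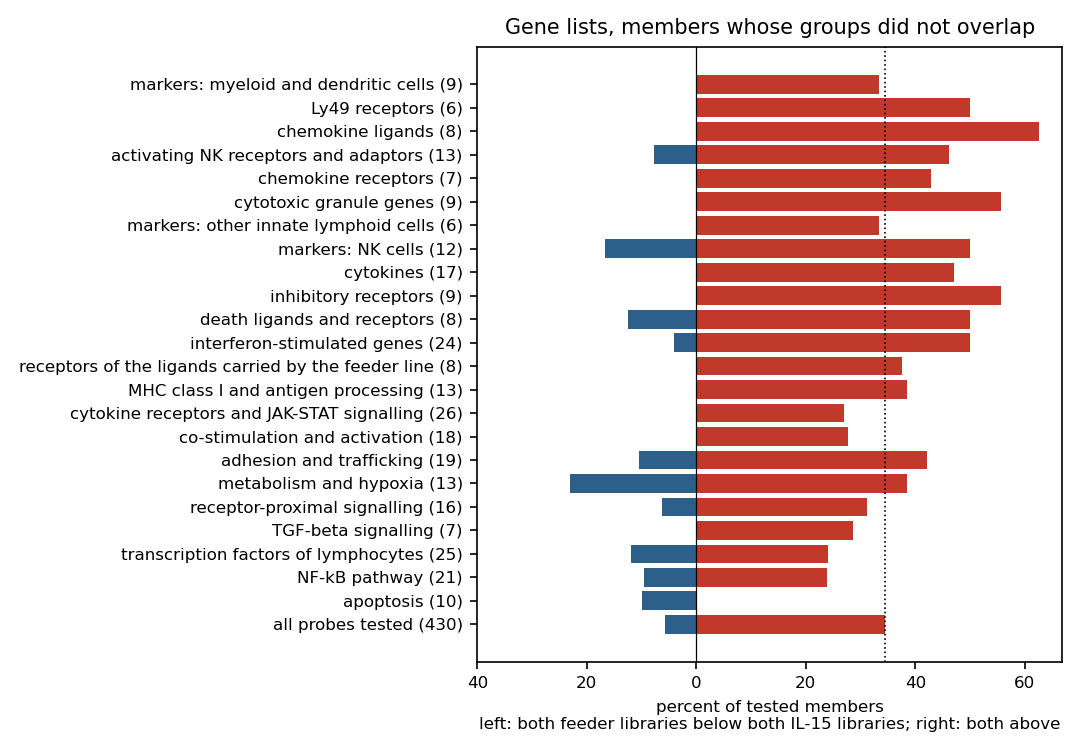
For each gene list with at least 6 tested members (number in brackets), the percent of tested members with both feeder libraries below (left) or above (right) both IL-15 libraries on the deposited scale. The lowest bar shows all tested probes, 5.81% below and 34.4% above, the dotted line repeats the 34.4%, and apoptosis has no member above.

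Apart from Cd63, the listed cytotoxic granule genes differed modestly. Of 9 cytotoxic granule genes tested, 5 were above and 0 below, beside 34.4% and 5.81% of all probes, with a median difference of 0.44, and only Cd63 was above on all 5 scales. Gzma, which encodes granzyme A, had 29381 and 34628 normalised counts in the feeder libraries, against 16006 and 21757 in the IL-15 libraries. Its difference was 0.77 ± 0.29 (SE, adjusted p = 0.504) and it overlapped under positive control scaling only. Prf1, which encodes the pore-forming perforin, had 7595 and 15542 with feeder cells and 12804 and 8286 with IL-15, and an interval of −0.88 to 1.04. Gzmb differed by 0.34 ± 0.28 (SE). In both genes feeder library 3 was highest and IL-15 library 1 came next. Ctsw, a cathepsin of cytotoxic cells, had 1727 and 1351 normalised counts in the feeder libraries, against 753 and 1241 in the IL-15 libraries.

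Of 8 death ligands and receptors, 4 were above and 1 was below, beside 34.4% and 5.81% of all probes, and none held on all 5 scales. Tnfrsf1a, the receptor for tumour necrosis factor with a death domain, had 147 and 142 normalised counts with feeder cells and 84.3 and 101 with IL-15, a difference of 0.65 ± 0.20 (SE, adjusted p = 0.441). Tnfsf10, which encodes TRAIL, had 119 and 64.3 in the feeder libraries, against 54.2 and 50.5 in the IL-15 libraries, with feeder library 2 apart from the rest. Fasl overlapped, with a difference of 0.10 ± 0.27 (SE). Tnfsf12, which encodes TWEAK and was outside the list, was above on every scale, at 71.3 and 84.0 normalised counts with feeder cells, against 39.2 and 49.7 with IL-15. Apoptosis genes sat below the middle of all probes. None of its 10 tested genes was above, 1 was below, and their median was −0.05, with none of the 10 exceeding the median of all probes.

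Interferon-stimulated genes were above in 12 of the 24 members measured, where 34.4% of all probes were above. These genes respond to type I and type II interferons, and many carry the element bound by the factor ISGF3 near their start. The list had 1 member below and a median difference of 0.29, and only Isg15 held on all 5 scales. Isg15, a ubiquitin-like antiviral protein gene, had 47.5 and 40.8 normalised counts in the feeder libraries, against 24.2 and 17.6 in the IL-15 libraries. The difference was 1.09 ± 0.35 (SE, adjusted p = 0.441). Irf7, the factor that amplifies type I interferon, had 95.05 and 61.8 with feeder cells, against 40.9 and 47.5 with IL-15, and Usp18, which removes ISG15 from proteins, had 23.8 and 16.1 with feeder cells, against 10.0 and 15.4 with IL-15. Gbp5, a guanylate binding protein gene, was the member below, at 77.2 and 75.4 with feeder cells and 83.4 and 115 with IL-15. Cmpk2, a further interferon-stimulated gene that was not on the list and was picked after its values were seen, was above on every scale. It had 56.4 and 26.0 normalised counts with feeder cells, against 15.02 and 14.6 with IL-15. The IL-15 libraries were nearly equal, and feeder library 2 lay well above feeder library 3.

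The promoter window of Isg15 is shown because this gene was the list member that kept the groups apart on all 5 scales, and it holds the core of the interferon-stimulated response element, searched on both strands as GAAA, then any 2 bases, then GAAA. The sequence is the RefSeq window of GRCm38.p6 on the minus strand at chr4:156200769-156201068, from 250 bases before to 50 after the start, with the matches in capitals.
Isg15: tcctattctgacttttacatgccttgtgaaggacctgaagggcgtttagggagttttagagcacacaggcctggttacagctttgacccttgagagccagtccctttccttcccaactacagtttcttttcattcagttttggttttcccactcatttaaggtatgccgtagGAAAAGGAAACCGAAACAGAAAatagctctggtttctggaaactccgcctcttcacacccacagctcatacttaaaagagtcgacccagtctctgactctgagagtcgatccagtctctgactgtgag
The window held 3 overlapping matches between bases −78 and −57 from the start. Of all 32851 windows in the table, 1131 (3.44%) held the motif. Of the 326 tested genes with a window, 30 (9.20%) held it, as did 7 (36.8%) of the 19 interferon-list members with a window, namely Ifih1, Ddx58, Isg15, Stat2, Gbp5, Ifitm2 and Bst2. These 7 genes spanned differences from −0.36 for Gbp5 to 1.09 for Isg15, so genes with the motif lay on both sides of 0.

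MHC class I genes gave 5 above and 0 below of 13 tested, a share near the 34.4% above among all probes, with a median of 0.27. H2-T23, which encodes Qa-1, the ligand of the CD94 and NKG2A receptor, held on every scale. It had 784 and 1054 normalised counts in the feeder libraries, against 366 and 552 in the IL-15 libraries, a difference of 1.02 ± 0.33 (SE, adjusted p = 0.441). The classical genes H2-K1 and H2-D1 differed by 0.53 ± 0.28 and 0.57 ± 0.27 (SE), and both overlapped under positive control and total count scaling. The class II gene H2-Ab1 had 131 and 157 normalised counts with feeder cells and 24.2 and 81.9 with IL-15, a difference of 1.69 ± 0.56 (SE, adjusted p = 0.441). That difference was 0.81 without IL-15 library 1 and 2.57, with an adjusted p of 0.0162, without IL-15 library 3. Its partner chain H2-Aa did not follow, with 58.4 and 33.4 in the feeder libraries, against 35.0 and 62.9 in the IL-15 libraries.

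Hif1a, Myc and Ada, genes of metabolic control, were lower with feeder cells on every scale. Hif1a, the oxygen-sensing transcription factor gene, had 1554 and 1903 normalised counts in the feeder libraries, against 3389 and 2878 in the IL-15 libraries. Both feeder libraries were well below, and the difference of −0.86 ± 0.19 (SE, adjusted p = 0.441) had a 95% interval of −1.33 to −0.39. It ran from −1.01 to −0.71 when any of the 4 libraries was left out. Myc, which drives growth and proliferation, had 379 and 377 with feeder cells and 619 and 522 with IL-15, a difference of −0.59 ± 0.21 (SE, adjusted p = 0.486). Ada encodes adenosine deaminase, which clears adenosine. It had 29.7 and 17.3 normalised counts with feeder cells, against 86.0 and 55.6 with IL-15, the greatest lower difference among tested probes without overlap, at −1.61 ± 0.43 (SE, adjusted p = 0.441).

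Other members of the metabolism list ran both ways. Adora2a, an adenosine receptor gene, had 50.5 and 76.6 normalised counts with feeder cells and 30.9 and 36.6 with IL-15, and the cholesterol exporter gene Abca1 had 24.8 and 35.8 with feeder cells, against 16.7 and 13.2 with IL-15. Both held on every scale. Entpd1, which encodes CD39, an enzyme that feeds adenosine production, differed by −0.29 ± 0.67 (SE) and overlapped. Abcg1, another sterol exporter gene, had 45.5 and 89.0 in the feeder libraries, against 44.2 and 17.6 in the IL-15 libraries, with feeder library 2 barely above IL-15 library 1. Txnip, an inhibitor of thioredoxin and of glucose uptake, was not on the list and was picked after its values were seen. It was above on every scale, at 933 and 1442 normalised counts with feeder cells, against 593 and 517 with IL-15. Of 13 metabolism and hypoxia genes tested, 5 were above, near the 34.4% of all probes, and 3 below, beside 5.81% of all probes. These 3 were Hif1a, Myc and Ada, which are among the 18 of 430 probes below on every scale.

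Of 25 lymphocyte transcription factors, 6 were above and 3 below, beside 34.4% and 5.81% of all probes, with a median of 0.04, under that of all probes. The 3 below, on every scale, were Hif1a, Nfatc2 and Eomes. Eomes, a T-box factor of NK cell maturation, had 1596 and 2004 normalised counts in the feeder libraries, against 2256 and 2254 in the IL-15 libraries, where the values were nearly equal. Its difference was −0.33 ± 0.18 (SE, adjusted p = 0.638). Its relative Tbx21, which encodes T-bet, had 107 and 108 with feeder cells, against 67.6 and 82.7 with IL-15 and a difference of 0.52 ± 0.25 (SE, adjusted p = 0.584), and overlapped under positive control and total count scaling. Irf4 was low in every library, with 31.7 and 27.2 in the feeder libraries, against 8.34 and 24.9 in the IL-15 libraries.

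Among adhesion genes, Cdh1 was higher with feeder cells. Of 19 tested, 8 were above and 2 below, beside 34.4% and 5.81% of all probes, and their median of 0.18 was close to the 0.19 of all probes. Cdh1, which encodes E-cadherin, the ligand of KLRG1, had 549 and 823 normalised counts in the feeder libraries, against 406 and 140.4 in the IL-15 libraries. The groups did not overlap, the difference was 1.49 ± 0.50 (SE, adjusted p = 0.450), and it moved to 2.26 without IL-15 library 1 and to 0.73 without IL-15 library 3. Of 12 stromal and epithelial markers listed, 3 were on the panel. None was at 0, and their summed level was 699 and 1155 normalised counts in the feeder libraries, against 618 and 241 in the IL-15 libraries, with Epcam at 144 and 323 with feeder cells, against 205 and 94.4 with IL-15. The part of such cells in the Cdh1 difference was not tested. Itgb3, the beta chain of the vitronectin receptor, had 333 and 533 with feeder cells, against 248 and 202 with IL-15, and Itga1, a collagen receptor chain and marker of tissue-resident NK cells, had 764 and 1002 with feeder cells, against 643 and 394 with IL-15. Both held on every scale.

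Further leading lower genes were Cd53, Gpr183 and Pdcd1lg2. Cd53, a leukocyte tetraspanin gene, had 111 and 139.6 normalised counts with feeder cells and 199 and 198 with IL-15, opposite in direction to the tetraspanin Cd63. Gpr183, the oxysterol receptor that guides lymphocyte position, had 34.7 and 26.0 with feeder cells, against 54.2 and 50.5 with IL-15, and Pdcd1lg2, which encodes PD-L2, had 61.4 and 56.8 with feeder cells, against 109 and 89.2 with IL-15. Ecsit, an adaptor of Toll-like receptor and mitochondrial signalling, had 58.4 and 58.1 in the feeder libraries, against 83.4 and 73.9 in the IL-15 libraries. All 4 were below on every scale.

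Kit, the stem cell factor receptor gene, was higher with feeder cells, at 176 and 129 normalised counts, against 71.8 and 87.0 with IL-15, a difference of 0.93 ± 0.25 (SE, adjusted p = 0.441), and the groups overlapped under positive control scaling only. Kit also marks mast cells and other innate lymphoid cells. Of 10 mast cell and basophil markers listed, 5 were on the panel and only Kit and Cma1 were tested. The summed level of these 5 was 257 and 486 in the feeder libraries, against 466 and 287 in the IL-15 libraries, and overlapped. Cma1, a chymase gene, had 48.5 and 331 normalised counts with feeder cells and 362 and 179 with IL-15. Fcer1a, Ms4a2 and Tpsab1 had at most 18 recovered counts in any of the 4 libraries. For other innate lymphoid cells, 10 of 12 markers were on the panel, and their summed level was 1818 and 2278 with feeder cells and 1775 and 1370.1 with IL-15. Il7r, a defining marker, had at most 15 counts.

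Myeloid and dendritic markers were low and 3 of 9 tested were above on every scale, namely H2-Ab1, Itgax and Cd68, with 0 below. Itgax was tested only because of the anti-TIM-3 libraries. Over all 430 probes, 25 were above on every scale, and 34.4% were above and 5.81% below on the deposited scale. H2-Aa and Cd74, also on the list, overlapped between groups. Of 29 listed, 12 were on the panel and none was at 0. Their summed level was 597 and 617 normalised counts in the feeder libraries, against 343 and 435 in the IL-15 libraries, without overlap. Cd68, a lysosomal membrane protein gene of phagocytes, had 68.3 and 70.4 with feeder cells, against 49.2 and 35.1 with IL-15. Csf1r, the receptor that defines macrophages, had 6 and 12 recovered counts in the feeder libraries, against 11 and 8 in the IL-15 libraries, no more than the highest negative control of the same library. For B and plasma cells, 5 of 13 markers were on the panel, with a summed level of 50.5 and 72.9 in the feeder libraries, against 49.2 and 47.5 in the IL-15 libraries. The part of these cells in the differences was not tested.

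Cytokine receptor and JAK-STAT genes, through which IL-15 acts, lay at the middle of all probes. Of 26 tested, 7 were above and 0 below, both shares under the 34.4% and 5.81% of all probes. Their median was 0.19, equal to that of all probes. Only Il10ra, the IL-10 receptor chain gene, held on every scale, at 175 and 245 normalised counts with feeder cells, against 146 and 117 with IL-15. Il18rap and Stat4, through which IL-18 and IL-12 act, differed by 0.42 ± 0.37 and 0.41 ± 0.42 (SE) and overlapped. NF-kB is one of the pathways CD137 engages. Of its 21 genes tested, 5 were above and 2 below, shares under 34.4% and over 5.81%, with a median below that of all probes, and Chuk was below on every scale. Tnfaip3, the feedback inhibitor A20, had 319.8 and 387 normalised counts with feeder cells and 257 and 266 with IL-15. Of 7 TGF-beta signalling genes, 2 were above and 0 below, also under the shares of all probes. Their median was 0.07, below that of all probes, and none was above on all 5 scales. Tgfbr1 was among those above, at 229 and 229 in the feeder libraries, against 138 and 176 in the IL-15 libraries. Its groups overlapped under positive control and total count scaling.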

How the data were processed

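RNA of 6 NK cell libraries, in 3 groups of 2, was measured on a NanoString nCounter panel. The deposited values are log2 values of 532 probes (498 endogenous, 20 housekeeping, 14 control) from the authors' value table. The submitters' processing notes name limma, without its version or role. How the authors scaled the values was read from them: the 20 housekeeping probes averaged 9.22 in every library. Each library's values came back as whole counts for 100% of the probes, within 0.01 of a whole number, after division by one factor for genes and another for controls. A further 18 columns and 12 rows of quality values named by lane, and a table of the authors' between numbered groups, were not used.

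Groups came from the labels of expansion method and treatment. Probes with 20 or more recovered counts in at least 2 libraries entered a 3-group model in limma 3.58.1 (R 4.3.3; variance trend, robust moderation), with no pseudocount and with Benjamini-Hochberg adjusted p called at 0.05. The 2 anti-TIM-3 libraries enter the estimate of spread, the choice of probes tested, and the trimmed mean and median of ratios scalings. Itgax and Tgfb3 were tested only because of them. The script was tested on simulated data. The members, the 28 gene lists and the tests were chosen with earlier results of these data known. Named genes were the 12 higher and the 12 lower with the smallest p among endogenous probes without overlap between groups and with a mean recovered count of at least 50 in the higher group, up to 3 tested members of each list with the largest difference, and Havcr2, Cd28, Ctla4, Tnfrsf9, Itgal and Itgb2. Adora2a, Cd68, Cd69, Chuk, Cmpk2, Egr2, Egr3, Entpd1, Fasl, Fos, Gbp5, Gzmb, H2-Aa, Hcst, Icos, Il2rb, Klrg1, Lck, Ncr1, Polr1b, Prf1, Tbx21, Tnf, Txnip and Xcl1 were added after their values were seen. Some genes chosen by this rule, 1 of the 12 lower among them, are not reported here. Alternatives were 4 other scalings, other filters and moderation, fewer libraries and a replicate block.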

Additional observations from a re-analysis of the deposited data

How the results depend on the processing

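Calls between the expansion methods stayed at 0 under 15 of 17 alternatives. The exceptions were positive control scaling, with 1 call (Cd63), and leaving out IL-15 library 3, with 7 calls. Leaving out 1 library at a time gave 0 to 7 calls, 24 to 59 probes at an unadjusted p under 0.05, and smallest adjusted p from 0.0162 to 0.791. Probes with both feeder libraries above numbered 148 on the deposited scale, 70 with the trimmed mean of M values, 38 with positive controls, 42 with total counts and 66 with a median of ratios, and those with both below numbered 25, 89, 44, 117 and 99. Leaving out 1 of the 4 libraries, an alternative chosen after seeing the data, gave 200 to 255 above and 57 to 88 below, as fewer libraries overlap less often. Of 80 named genes, 19 changed sign under at least 1 alternative and 8 passed the threshold under at least 1. With the trimmed mean of M values, positive controls, total counts and a median of ratios, in that order, the log2 differences were −0.026, −0.077, −0.14 and −0.057 for Itgal, −0.16, −0.21, −0.27 and −0.19 for Itgb2 and likewise for Thy1, and −0.040, −0.10, −0.16 and −0.080 for Tnfrsf13c. Over the fits that left out 1 library, differences ran from −0.39 to 0.19 for Bcl2l1, −0.31 to 0.034 for Bid, −0.10 to 2.31 for Cd74, −2.39 to 0.38 for Cma1, −1.65 to 1.03 for Ctla4, −0.24 to 1.22 for Cxcr3 and −0.0079 to 0.93 for Cxcr6. They ran from −0.085 to 0.92 for Il18rap, −0.28 to 0.31 for Itgb2, −0.30 to 2.25 for Klra4, −0.19 to 1.69 for Klrc2, −0.040 to 1.53 for Klrk1, −0.73 to 0.39 for Smad3, −0.081 to 0.89 for Stat4, −0.12 to 0.15 for Thy1 and −0.33 to 0.58 for Tnfrsf13c. No label says whether the title numbers pair the libraries. Deviations from the group means correlated at 0.08, 0.04 and −0.41 for numbers 1, 2 and 3, and only number 3 is shared by both groups. With 2 libraries a group, the deviations within a group mirror each other, so these correlations cannot decide it. With the replicate block there were 0 calls, a smallest adjusted p of 0.997, 17 probes at an unadjusted p under 0.05, against 39 without it, and a median difference of 0.13. Differences that changed sign with the replicate block were 0.031 for Bid, −0.059 for Ccl1, 0.28 for Cma1, 0.41 for Ctla4, −0.13 for Cxcr3, −0.11 for Icam1 and −0.062 for Stat4. The cause of these changes was not tested. With 2 libraries a group, and negative controls reaching 12 counts, differences in probes near 20 counts have little precision.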

Other observations

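Several genes varied more between libraries of one expansion method than between the methods, and they are listed here with values only. They were picked after their values were seen. Spp1, which encodes the secreted protein osteopontin, had 17881 and 38386 normalised counts in feeder libraries 2 and 3, against 35992 and 9445 in IL-15 libraries 1 and 3. Cd55, a complement inhibitor gene, had 1974 and 4391 in the feeder libraries, against 4519.6 and 1079 in the IL-15 libraries, and Ctsg, which encodes cathepsin G, had 352 and 868 with feeder cells, against 744 and 222 with IL-15. Entpd1, which encodes the ectonucleotidase CD39, had 57.4 and 89.0 with feeder cells and 170.2 and 44.6 with IL-15, and Ceacam1 had 32.7 and 60.6 with feeder cells, against 46.7 and 11.7 with IL-15. In these 5 genes feeder library 3 was above feeder library 2 and IL-15 library 1 was above IL-15 library 3.

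The opposite layout appeared in Cdk1, the mitotic kinase gene, with 36.6 and 9.89 normalised counts in the feeder libraries, against 19.2 and 54.1 in the IL-15 libraries. Cd74, the class II invariant chain gene, shared it, with 118 and 22.2 with feeder cells, against 12.5 and 45.4 with IL-15. Over all tested probes, the gap between both IL-15 libraries exceeded the absolute difference of the group means at 258 of 430. The absolute difference exceeded both within-group gaps at 92 probes that were higher with feeder cells and at 20 that were lower.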
